A study of Arabidopsis thaliana with 11 samples.

Results

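HY5 is a basic leucine zipper transcription factor that accumulates when dark-grown seedlings meet light and helps switch them to green growth. It is best known for binding short ACGT-containing elements in promoters close to start sites. The binding sites described here are the minority that lay inside transcribed genes and touched no promoter. They were taken from HY5ox, the tagged protein without an added domain, and were selected on the measured peaks of its 3 libraries. A peak of HY5ox replicate 1 was kept if it overlapped a peak of HY5ox replicate 2 and one of HY5ox replicate 3 by at least 1 bp, was assigned by the authors to at least 1 gene body, and was assigned to no promoter, which the authors took as the stretch of 2000 bp before a start site. Of 5101 peaks shared by the 3 HY5ox libraries, 368 (7.21%) met this rule. Another 4238 (83.1%) touched a promoter and 495 (9.70%) had neither assignment. Of the 4238 promoter peaks, 2191 (51.7%) also reached into a gene body and are not counted among the 368.

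The study placed HY5 under the viral 35S promoter, which drives expression in most plant tissues, so the sites are those of a broadly expressed, tagged protein. All 8 immunoprecipitated libraries carried the FLASH2 tag and were made from whole Arabidopsis thaliana seedlings of ecotype Columbia, kept for 3 days in darkness and then exposed for 2.5 h to 100 µmol m-2 s-1 of simulated white light. HY5ox had 3 libraries, HY5-VP16, which carries an activation domain, had 3, and HY5-SRDX, which carries a repression domain, had 2. All libraries and their untagged controls were precipitated with a Flag antibody. In set 1, with a Col-0 control, were both HY5-SRDX libraries, the first pair of HY5-VP16 libraries (replicates 1 and 2) and HY5ox replicate 1. HY5ox replicate 2 formed set 2 with a control named hy5, and its label says it was collected and processed apart from the rest. HY5ox replicate 3 and HY5-VP16 replicate 3 formed set 3 with another Col-0 control. Whether replicates were separate transgenic lines or separate plantings is not in the labels, so p-values measure the spread between libraries, which may be technical. Whether the tagged lines also carried a hy5 mutation is not stated either.

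The libraries held between 11.5 and 56.0 M tags and between 2958 and 20509 peaks. HY5-VP16 replicate 3 stood apart with the most tags and the fewest peaks, and 1.83% of its tags lay in peaks, against 5.94% to 10.1% in the others. The share of each library's own peaks that were gene-body-only was 9.43%, 7.98% and 10.5% in HY5ox replicates 1, 2 and 3. It was 9.46%, 18.6% and 11% in HY5-VP16 replicates 1, 2 and 3, and 30.3% and 16% in HY5-SRDX replicates 1 and 2. DNA sequence under the peaks, and whether a peak lay in an exon, an intron or an untranslated region, were not analysed here.

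The 12 strongest gene-body-only peaks lay in 6 genes with a symbol, PUP4, ATL5, CYP86A4, CYP86A8, 4CL1 and BLH4, and in 6 without one. Peaks were ranked by the score of the peak caller within each library, as a percentile in which 0 is the strongest. Because these libraries chose the peaks, their ranks and folds are given as a description. The lowest mean rank over the 3 HY5ox libraries, 0.0235, belonged to PUP4 (AT1G30840), a member of the purine permease family. Its peak (TAIR10, chr1:10975291-10975563, gene on the plus strand) was centred 981 bp into a gene of 1853 bp. It held 9.58, 14.3 and 31.8 times the control tags in HY5ox replicates 1, 2 and 3, and 7.81, 5.84 and 15 times in HY5-VP16 replicates 1, 2 and 3. Neither HY5-SRDX library listed a peak there.

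ATL5 (AT3G62690), of the ATL family of RING-type ubiquitin ligases, came next with a mean rank of 0.0419. Its peak (chr3:23186073-23186345, minus strand) lay 492 bp from the start. It reached 30.3, 12.8 and 28.7 times the control in HY5ox, 16.1, 18.7 and 14.2 times with HY5-VP16, and 33.4 and 8.58 times with HY5-SRDX. Unlike the PUP4 peak, it was thus listed in every library. The fold of 33.4, in HY5-SRDX replicate 1, rests on few control tags. The peak held 30.4 scaled tags there and had a middling percentile rank of 50.3.

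CYP86A4 (AT1G01600) belongs to a cytochrome P450 family of fatty acid hydroxylases that make cutin monomers for the plant surface. Its peak (chr1:220128-220400, plus strand) was centred 1269 bp from the start and 1022 bp from the end of the gene. It held 16.7, 9.07 and 27.2 times the control in HY5ox, 9.76, 8.91 and 9.22 times with HY5-VP16, and 6.09 and 11 times with HY5-SRDX. Its relative CYP86A8 (AT2G45970, chr2:18913071-18913343, minus strand), also among the 12 strongest, gave 7.31, 10.4 and 19.1 times the control in HY5ox and 4.07, 3.15 and 8.16 times in HY5-VP16. In HY5-SRDX it was listed in replicate 1 with 3.05 times the control and was not listed in replicate 2.

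4CL1 (AT1G51680) encodes 4-coumarate CoA ligase, which feeds lignin and flavonoid synthesis. Its peak (chr1:19161156-19161428, minus strand) was centred 260 bp downstream of the start, 9.29% of the way into the gene. It held 7.64, 6.32 and 28.4 times the control in HY5ox and 4.58, 3.59 and 10.8 times in HY5-VP16, and neither HY5-SRDX library listed it. BLH4 (AT2G23760), a BEL1-like homeodomain transcription factor gene of 5504 bp, carried its peak (chr2:10107938-10108210, minus strand) 5139 bp from the start, close to the other end. The folds there were 22.7, 8.63 and 20.3 in HY5ox, 15.6, 13.2 and 10 in HY5-VP16, and 7.89 in HY5-SRDX replicate 2 alone of its construct. The other genes among the 12 strongest were AT2G22790, AT5G37540, AT3G22410, AT2G36220, AT3G22550 and AT2G27310, which carry no gene symbol in RefSeq. Their mean HY5ox ranks ran from 0.362 to 1.13.

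All 12 of these peaks were listed in each HY5-VP16 library. HY5-SRDX replicate 2 listed 9 of them and HY5-SRDX replicate 1 listed 3, those of ATL5, CYP86A4 and CYP86A8. Of all 5101 shared HY5ox peaks, HY5-VP16 replicates 1, 2 and 3 listed 80.7%, 76.3% and 46.4%. HY5-SRDX replicates 1 and 2 listed 34.5% and 66.0%. For 819 promoter peaks with mean HY5ox ranks from 0.0235 to 12, the shares were 96.3%, 93.7% and 97.6%, then 53.0% and 84.5%. Strong promoter peaks were thus also listed often.

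**Figure D1:**
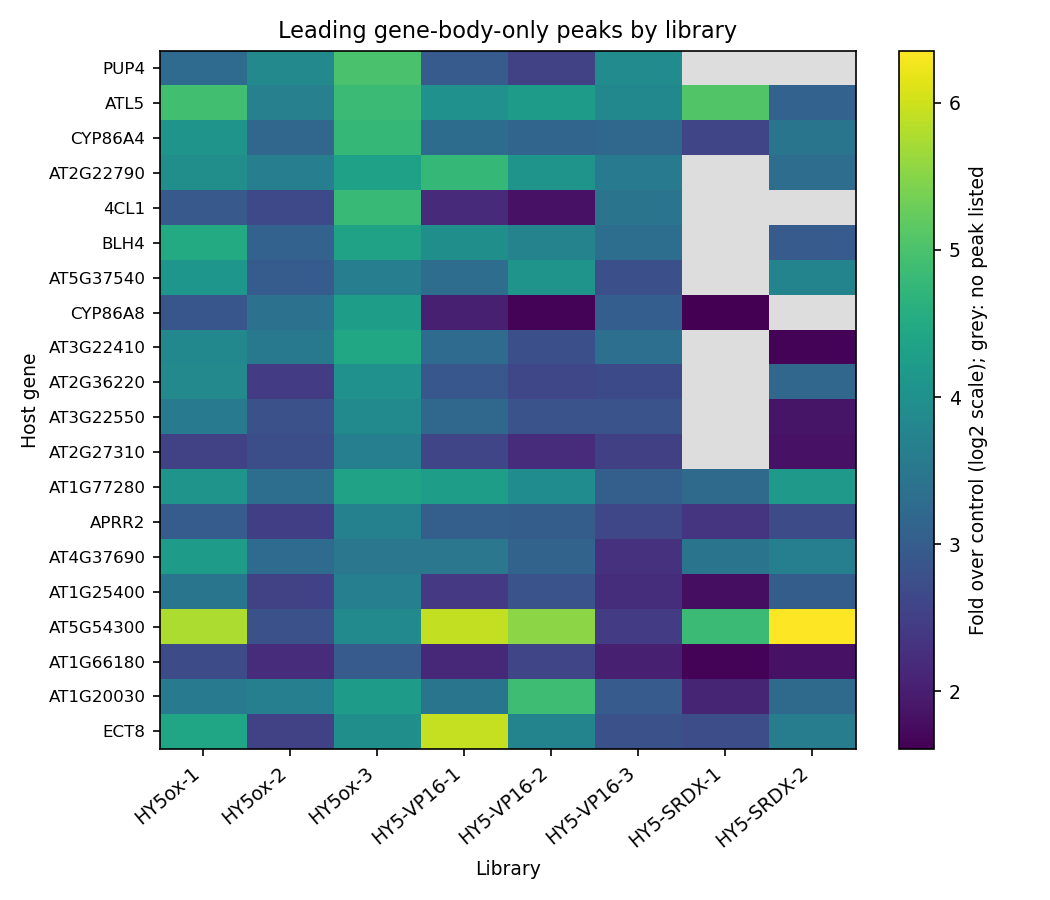
Fold over the control (colour, log2 scale) at the 12 strongest gene-body-only peaks and at 8 further peaks with the best ranks among those found in all 5 HY5-VP16 and HY5-SRDX libraries, 1 row per host gene and 1 column per library, with grey where no peak was listed. Grey cells lie in the HY5-SRDX columns: PUP4 and 4CL1 were listed in neither HY5-SRDX library.

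The ranks of the 368 peaks are those of peaks required in all 3 HY5ox libraries. Of the gene-body-only peaks of HY5ox replicate 1, 31.3% were kept by that requirement, beside 42.5% of its promoter peaks. The ranks thus describe a selected part of each class. Their median percentile rank was 22.8, 28.7 and 21.8 in HY5ox replicates 1, 2 and 3, beside 23.6, 38.5 and 28.5 for the promoter peaks. In the 10% of strongest peaks of each library stood 94 (25.5%), 71 (19.3%) and 103 (28%) of them, beside 23.9%, 13.6% and 19.8% of the promoter peaks. The fold over the control gave a different order. Its median was 6.87, 4.37 and 7.0 at gene-body-only peaks and 8.44, 4.70 and 6.49 at promoter peaks, so the gene bodies were lower in replicates 1 and 2 and higher in replicate 3.

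The control signal did not follow this order in replicate 3. Median peak signal, in tags per 10 M, was 91.0, 93.8 and 118 at gene-body-only peaks and 89.6, 84.3 and 104 at promoter peaks in HY5ox replicates 1, 2 and 3. The control signal implied by the authors' signal and fold was 13.4, 21.3 and 17.3 at gene-body-only peaks and 10.9, 17.9 and 16.5 at promoter peaks. Untagged chromatin thus gave more tags at the gene-body-only peaks in all 3 sets, including set 3, where the median fold was higher there. The part of this control signal in the fold values was not tested further.

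The peaks were spread along the genes with most of them beyond the middle. The centre lay inside the host gene for 344 peaks and past its annotated end for 24, whose peaks reach into the gene only in part. For the 344, the median place was 57.1% of the way from start to end (quartiles 31.9% and 77.9%), 1016 bp from the start (quartiles 640 and 1698 bp). The nearest centre to a start was 136 bp away, in the glutamate receptor-like gene GLR1.3, and the farthest 5331 bp. From the start to the end of the gene, 5 equal parts held 49, 60, 79, 88 and 68 centres (14.2%, 17.4%, 23%, 25.6% and 19.8%).

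The rule keeps peaks away from promoters, so the place near a start is partly fixed by it. In the 340 genes that host the 344 centres, 86.5% of bases were open to such a peak. Open means that a peak centred there would touch none of the promoters assigned a peak in any of the 8 libraries. Those are the promoters of 22089 genes. Promoters that no peak touched count as open, so the open share is an upper value, and how this alters the 5 parts was not tested. The 5 parts held 16.8%, 21.8%, 21.6%, 20.5% and 19.3% of these open bases. The peaks were below this in the first and second parts and above it in the third and the fourth. Gene-body-only peaks that were not shared by the HY5ox libraries varied in place from library to library. Their median place was 44.5%, 56.2% and 49.8% of gene length in HY5ox replicates 1, 2 and 3, then 43.5%, 42.6% and 55.2% for HY5-VP16 and 50.6% and 43.9% for HY5-SRDX. The unshared peaks of HY5ox replicate 2 and HY5-VP16 replicate 3 thus lay near the 57.1% of the shared peaks, with 25.3% and 26.7% in the fourth part. The 733 unshared peaks of HY5ox replicate 1 lay nearer the start, with 28.4%, 18.4%, 14.9%, 17.5% and 20.9% in the 5 parts. Within 500 bp of a start lay 17.2% of the shared peaks, and 31.5%, 22% and 29.4% of the unshared peaks of HY5ox replicates 1, 2 and 3.

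**Figure D2:**
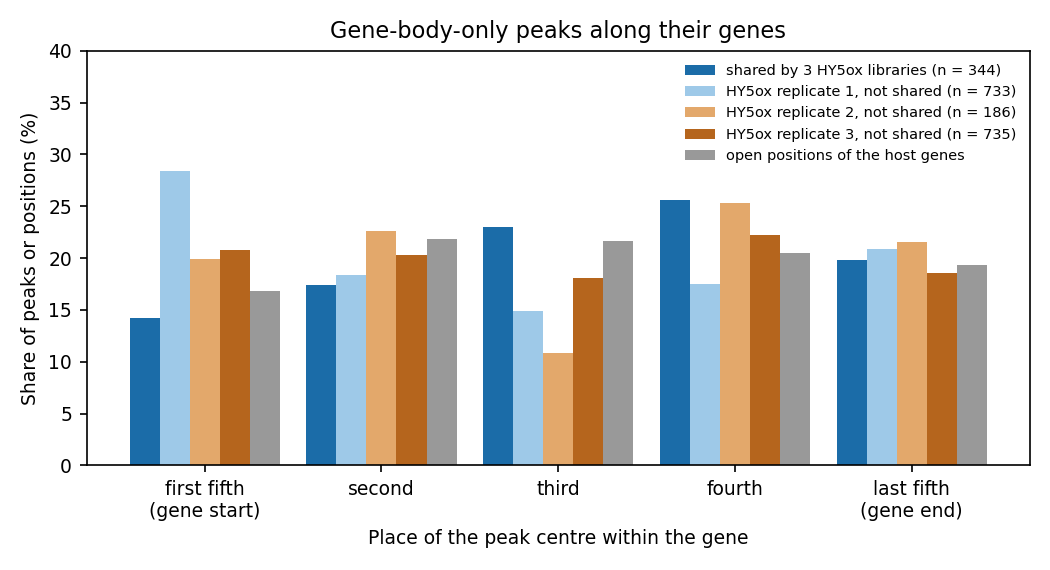
Share of peak centres (%, bars from 0) in each of 5 equal parts of the host gene, for the gene-body-only peaks shared by the HY5ox libraries, the unshared ones of each HY5ox replicate, and the open positions of the host genes. The shared peaks are most frequent in the fourth part (25.6%), as are the unshared peaks of HY5ox replicates 2 (25.3%) and 3 (22.2%), while those of replicate 1 reach 17.5% there.

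Presence in the other constructs is a measure the rule did not use, although these libraries share controls with HY5ox replicates 1 and 3. A peak was called found when a peak of the other library overlapped it by at least 1 bp. HY5-VP16 replicate 1 found 280 of the 368 (76.1%, 95% Wilson interval 71.5 to 80.2), near the 80.7% of all 5101 shared HY5ox peaks. HY5-VP16 replicate 2 found 268 (72.8%, 68.1 to 77.1), beside 76.3% of all. HY5-VP16 replicate 3 found 206 (56.0%, 50.9 to 61), above the 46.4% of all. HY5-SRDX replicate 1 found 94 (25.5%, 21.4 to 30.2), beside 34.5% of all, and HY5-SRDX replicate 2 found 203 (55.2%, 50.1 to 60.2), beside 66.0%. Intervals cover counting error only.

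Of the 368 peaks, 43 (11.7%) were found in all 5 libraries, against 17.7% of all shared peaks. Found in none were 21 (5.71%), against 5.43% of all. From 1 library to 5, peaks found more often were stronger in HY5ox, with median ranks of 51.3, 36.5, 22.7, 16.3 and 12.2, while those found in none had 42.0. Where a member was found, the overlapping peak was itself gene-body-only in the other library in 92.6% to 96.6% of cases. The rule largely fixes this share, since such a peak overlaps a place already chosen as gene-body-only.

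**Figure D3:**
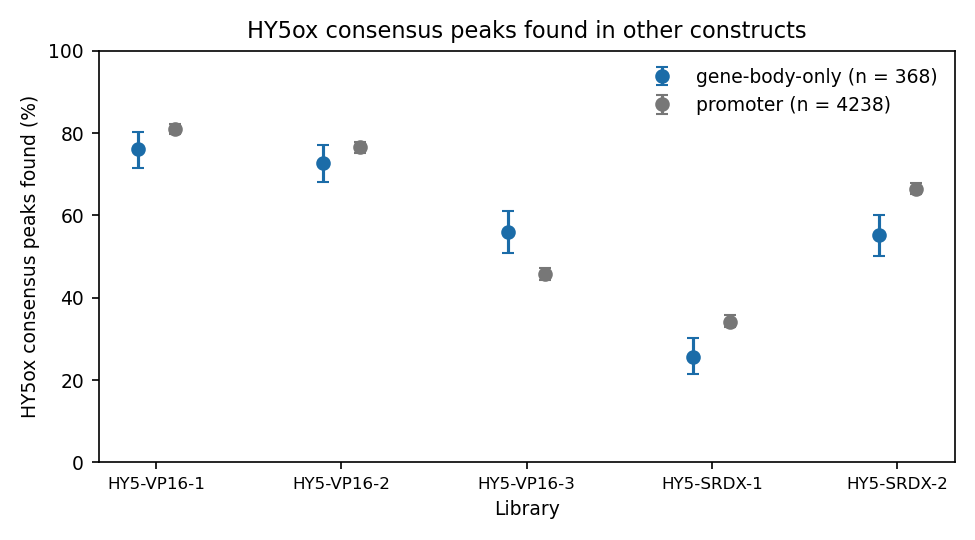
Share of shared HY5ox peaks (%) found in each HY5-VP16 and HY5-SRDX library, for gene-body-only peaks (blue) and promoter peaks (grey), with 95% Wilson intervals for counting error. Gene-body-only peaks lie below promoter peaks in 4 libraries and above them in HY5-VP16 replicate 3 (56.0% against 45.7%).

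Against the promoter peaks of the same library, gene-body-only peaks were found less often in 4 of 5 libraries. The gaps were -4.89, -3.72 and 10.3 percentage points in HY5-VP16 replicates 1, 2 and 3, and -8.67 and -11.3 points in HY5-SRDX replicates 1 and 2. The mean gap of -3.66 ± 8.38 points (SD, n = 5) was smaller than the spread (two-sided exact sign-flip permutation p = 0.375, the smallest possible being 0.0625). The sign followed the set. Within set 1 the mean was -7.15 points over 4 libraries (exact p = 0.125, the smallest possible with 4), which is also the value without HY5-VP16 replicate 3. That library is the only one of set 3, so set and library cannot be told apart. Without HY5-SRDX replicate 1 or 2 the mean was -2.41 or -1.74. Promoter peaks were also matched to the gene-body-only peaks by rank in HY5ox replicate 1. The gaps were then -5.76, -4.65 and 8.13 points for HY5-VP16 and -9.44 and -12.1 for HY5-SRDX. Their mean was -4.76 (exact sign-flip permutation p = 0.250). Matching by fold over the control in HY5ox replicate 1 was chosen after seeing the data. It gave gaps of -1.03, 0.324, 14, -4.77 and -7.28 points, with a mean of 0.241 (exact permutation p = 0.938). With the same number of top peaks from each HY5-VP16 and HY5-SRDX library, the mean gap was -0.0952 points.

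The strength of the found peaks also depended on the measure. By score, the median rank of gene-body-only minus promoter peaks was -0.583, -3.32 and -11 for HY5-VP16, then 9.14 and 2.17 for HY5-SRDX, a mean of -0.716 ± 7.38 (SD, n = 5, exact sign-flip permutation p = 0.750). By fold over the control the differences were 13.1, 13.5 and -2.86 for HY5-VP16 and 17.5 and 12.6 for HY5-SRDX, so gene bodies ranked weaker in every set 1 library (mean 10.8, exact permutation p = 0.125). The control signal at found peaks was higher in gene bodies in all 5 libraries: 11.8 against 9.55 tags per 10 M in HY5-VP16 replicate 1, 9.54 against 6.96 in replicate 2 and 15 against 14.2 in replicate 3. It was 6.36 against 5.45 in HY5-SRDX replicate 1 and 9.10 against 7.29 in replicate 2.

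HY5-VP16 libraries found more of the gene-body-only peaks than HY5-SRDX libraries did. The share was 68.3% ± 10.8 (SD, n = 3) in HY5-VP16 and 40.4% ± 20.9 (n = 2) in HY5-SRDX, a difference of 27.9 points, and every HY5-VP16 library stood above both HY5-SRDX libraries, although HY5-VP16 replicate 3 found 206 peaks and HY5-SRDX replicate 2 found 203. The two-sided exact permutation test gave p = 0.200, and 3 libraries against 2 cannot give less than 0.10. Without HY5-SRDX replicate 1 the difference was 13.1 points, and without HY5-SRDX replicate 2 it was 42.8. Promoter peaks gave 67.7% ± 19.2 and 50.4% ± 22.8, a difference of 17.4 points (exact permutation p = 0.500). The gap between the peak classes was 0.569 ± 8.47 points in HY5-VP16 and -10 ± 1.88 in HY5-SRDX, a difference of 10.6 points (exact permutation p = 0.300) that fell to 5.69 without HY5-VP16 replicate 3.

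The gaps were also read in 4 groups of 92 peaks by mean HY5ox rank. Of the 92 gene-body-only peaks with the lowest mean HY5ox ranks (0.0235 to 12), HY5-VP16 replicates 1, 2 and 3 found 92.4%, 90.2% and 100%, beside 96.3%, 93.7% and 97.6% of 819 promoter peaks in that rank range. HY5-SRDX replicates 1 and 2 found 26.1% and 63.0% of the 92, beside 53.0% and 84.5% of the promoter peaks. The gaps of -26.9 and -21.4 points in HY5-SRDX lay below all 3 gaps of HY5-VP16, which were -3.95, -3.43 and 2.44. The difference between constructs was 22.5 points, with an exact permutation p of 0.10, the smallest possible, in a division by rank chosen after seeing the data. In the second group (ranks 12 to 25.4) the gaps were -10.9 and -12.8 points in HY5-VP16 replicates 1 and 2, 3.42 in replicate 3, and -14.9 and -13 in HY5-SRDX. In the third (25.4 to 45.5) they were -9.04, -8.32 and 4.42 for HY5-VP16, and 1.06 and -11.8 for HY5-SRDX. Among the 92 weakest (ranks 45.5 to 97.3) the gaps were -4.94, -0.590 and 3.00 points for HY5-VP16 and -2.97 and -8.14 for HY5-SRDX.

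Presence in every HY5-VP16 library and no HY5-SRDX library was recorded for 48 of the 368 peaks (13%), beside 5.97% of the promoter peaks. PUP4 and 4CL1 were among them. Without HY5-VP16 replicate 3, which had the fewest peaks, the shares were 19.3% and 13.2%. The reverse pattern held for 3 peaks (0.815%, beside 0.472% of promoter peaks), named here after their values were seen. They lay in the transcription factor gene WRKY7, in TIFY7, which encodes the jasmonate repressor JAZ9, and in LRX2, a leucine-rich repeat extensin gene. These counts compare libraries of unequal length: HY5-SRDX replicate 1 had the most peaks of all and found the fewest of the 368.

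Among the peaks found in all 5 libraries, the best mean rank there belonged to AT1G77280, whose peak (chr1:29035607-29035879, minus strand) was centred 139 bp from the start of a gene of 4414 bp. Its folds were 16.7, 9.98 and 20.2 in HY5ox, 19.4, 15.1 and 8.21 with HY5-VP16, and 9.45 and 17.8 with HY5-SRDX. APRR2 (AT4G18020), which is related to the pseudo-response regulators, followed with a peak 92.8% of the way along the gene and folds of 5.02 to 12.9 over the 8 libraries. The fold at AT5G54300 ran from 28.6 to 81.8 in the 5 libraries of set 1 and from 5.45 to 14.5 in the others. The control signal there was 1.79 to 3.63 tags per 10 M in set 1 and 16.7 to 25.7 in the others, so the set 1 folds rest on few control tags. ECT8, a YTH-domain reader of RNA methylation, carried its peak 192 bp from the start, with folds of 21.3, 5.83 and 15.7 in HY5ox. AT4G37690, AT1G25400, AT1G66180 and AT1G20030 completed this set beside ATL5 and CYP86A4.

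The 368 peaks named 375 host genes, 366 of them protein-coding. In 370 of these genes there was 1 peak and in 5 there were 2. Host genes were bound at their own promoter about as often as other genes: 74 of the 375 hosts (19.7%) also had a shared HY5ox promoter peak, beside 19.5% of all 27444 protein-coding genes. Host genes had a median length of 2422 bp, beside 2350 bp for genes with a promoter peak and 2078 bp for all protein-coding genes. The neighbour downstream pointed towards the host in 174 of 301 cases (57.8%), beside 49.7% for promoter-bound genes and 48.2% for all. The upstream neighbour pointed away in 126 of 314 (40.1%), beside 61.1% and 51.0%. The rule bears on these 2 shares, since a peak near the promoter of a neighbour is not gene-body-only. Only genes whose neighbour had a known direction were counted, and this part differed between groups. Downstream it was 301 of 375 hosts, 4411 of 5672 promoter-bound genes without a gene-body-only peak, and 18348 of all 27444. Upstream it was 314, 4822 and 19372.

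The host genes were set beside lists of light, hormone and metabolic genes. Of 341 genes in 15 such lists, 12 were hosts, while 1.33% of all protein-coding genes were hosts. The B-box list (0 of 17 hosts, 9 promoter-bound), the circadian clock list (0 of 18 hosts, 14 promoter-bound) and the photoprotection list (0 of 8 hosts, 7 promoter-bound) held none. The chlorophyll and carotenoid, photosynthesis, cell wall, nutrient, calcium and housekeeping lists held none either. The lists are selections and leave out hosts of like kind. Among these were the photosystem genes PSBR and Lhca5, the kinase genes CIPK5 and CIPK17, and the nitrate transporter gene NRT1.5. With hosts this rare in the genome, an empty list of this size shows no difference from other genes. The promoter-bound share ran from 33.3% to 87.5% over the lists. It was 46.2% for the housekeeping list, above which lay 6 lists and at or below which lay 8. Light signalling held 2 of 33 hosts, beside 20 with a promoter peak.

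Both light signalling hosts belong to the ultraviolet-B pathway. RUP2, which returns the photoreceptor UVR8 to its inactive state, had its peak (AT5G23730, chr5:8006209-8006481, plus strand) 1110 bp from the start, 79.6% of the way along. It held 6.84, 5.40 and 7.82 times the control in HY5ox, 7.11 and 4.59 times in HY5-VP16 replicates 1 and 2, and 3.62 times in HY5-SRDX replicate 2, and was not listed in the other libraries. The peak in UVR8 itself (AT5G63860, chr5:25558943-25559215, minus strand), 420 bp from the start, was weak, with 3.67, 4.47 and 3.66 times the control in HY5ox and 3.34 times in HY5-VP16 replicate 2 alone.

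The flavonoid list held 3 of 22 hosts: 4CL1, 4CL3 and MYB12, the last a regulator of flavonol synthesis. MYB12 (AT2G47460, chr2:19478081-19478353, plus strand) had 8.29, 6.60 and 5.86 times the control in HY5ox, 15.3, 7.86 and 3.61 times in HY5-VP16, and 4.63 times in HY5-SRDX replicate 2. The 4CL3 peak had 5.88, 3.96 and 8.65 times in HY5ox, 5.77, 5.65 and 3.77 times in HY5-VP16, and no HY5-SRDX peak.

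Hormone genes made up the rest. The abscisic acid receptors PYL6 (AT2G40330) and PYL4 (AT2G38310) had peaks 535 and 578 bp from their starts, near the middle of each gene. PYL6 held 6.25, 4.33 and 12.9 times the control in HY5ox and 4.6, 5.0 and 4.30 times in HY5-VP16. PYL4 held 5.68, 3.46 and 7.19 times in HY5ox. DWF4, a cytochrome P450 of brassinosteroid synthesis, had a peak 2481 bp from the start with 5.67, 6.68 and 10.9 times the control in HY5ox. BKI1, an inhibitor of the brassinosteroid receptor, had 5.60, 3.32 and 6.54 times. The auxin list gave PID, a kinase that directs auxin transporters, with 15.9, 4.42 and 9.29 times in HY5ox, and AT2G17500 (PILS5), found in no HY5-VP16 or HY5-SRDX library. TIFY7 was the host of the ethylene and jasmonate list. Of the 12 list hosts, 10 were found in at least 1 HY5-VP16 library and 5 in at least 1 HY5-SRDX library, 1 of them in both. Over all 368 peaks the shares were 90.8% and 61.4%.

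A descriptive name in RefSeq was given for 145 hosts, of which 80 fell into at least 1 class by that name and 65 into none. Transcription factors made up 19 of the 145 (13.1%), beside 7.35% of named promoter-bound genes and 7.15% of all named genes. Transporters and channels made up 15 (10.3%, beside 4.61% and 5.05%), and cytochrome P450 genes 7 (4.83%, beside 1.1% and 2.45%). The transcription factors included BLH2 and BLH4, GATA1, GATA2 and GATA4, and WRKY7, WRKY11, WRKY17 and WRKY65. The transporters included PUP4, the nitrate transporters NRT1.5 and NRT1.7, the oligopeptide transporters OPT4 and OPT7, the sugar transporter STP1 and the zinc transporter ZIP5. The kinase class held 9 hosts by name (6.21%, beside 6.63% and 5.89%), among them BKI1, which inhibits a kinase and is not one. Whether the others are kinases was not checked. No ribosome or translation gene was a host, while 0.576% of promoter-bound genes had such names. These are counts by name with no test, and they can misplace or miss genes. DWF4 and ROT3 encode cytochrome P450 enzymes but are not among the 7.

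Host genes of a few families carried the peak at a similar place. This was noticed in the data and is described without a test. Among 42 host genes that share a symbol stem in 17 stems, 40 pairs could be formed, and their peak centres differed by a median of 6.14 points of gene length. Over all 57630 pairs of host genes the median difference was 27.3 points. Within 10 points lay 28 of the 40 pairs (70.0%), beside 20.1% of all pairs. The WRKY genes gave 12 of 15 pairs within 10 points, the CYP86A genes 6 of 6, and the other 15 stems 10 of 19 (52.6%). Some stems name no family: DIN2 and DIN10 share only a name.

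The 6 WRKY genes, from a family of transcription factors best known in defence, had their peaks between 77.1% and 87.9% of gene length, 133 to 435 bp from the gene end. WRKY65 had 6.75, 3.94 and 10.9 times the control in HY5ox, and WRKY53 had 4.80, 3.26 and 4.11 times and was in no other construct's list. The 4 CYP86A genes lay between 55.1% and 61.8%. CYP86A2 had 15, 7.5 and 14.6 times the control in HY5ox, and CYP86A7 had 4.17, 7.89 and 10.6 times. BLH4 and BLH2 lay at 93.4% and 93.7%, MAPKKK19 and MAPKKK20 at 54.0% and 55.1%, OPT7 and OPT4 at 41.2% and 43.3%, and the wax-related fatty acid elongase genes KCS1 and KCS13 at 25% and 27.2%. The GATA genes (28% to 82.2%), 4CL1 and 4CL3 (9.29% and 48.6%), UMAMIT36 and UMAMIT45 (28.6% and 56.9%), GSTU15 and GSTU5 (20.1% and 94.9%) and the PAP genes (5.03% to 82.4%) did not share a place. Related genes have related sequence, and whether reads of one copy were placed on another was not tested.

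**Figure D4:**
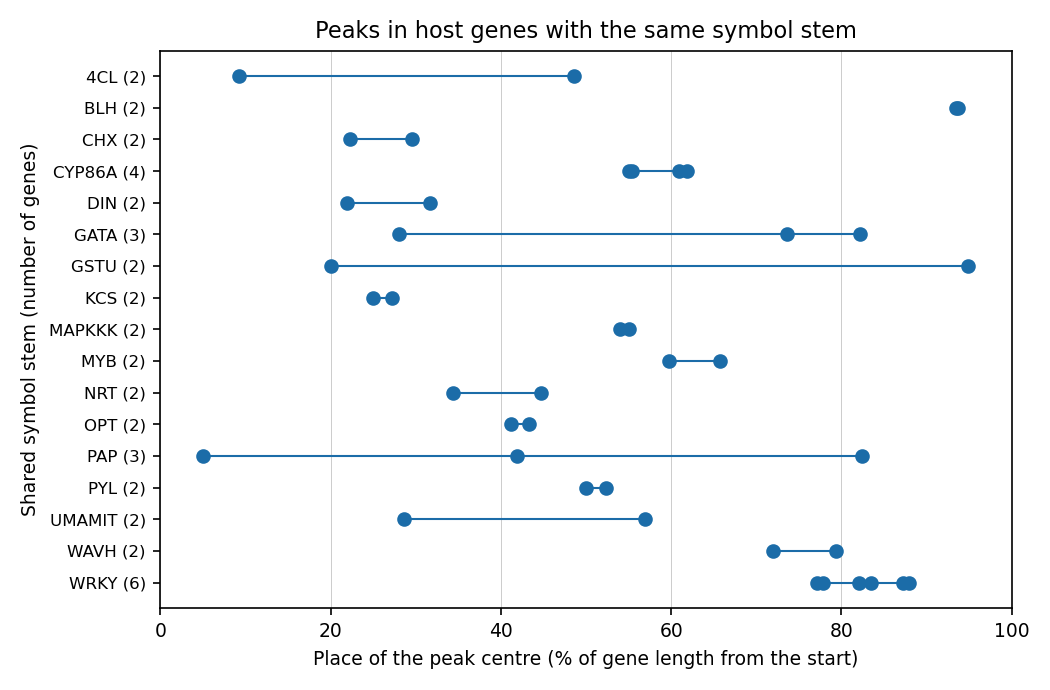
Place of the peak centre (% of gene length from the start) in host genes that share a symbol stem, 1 point per gene and 1 row per stem. The 6 WRKY genes lie between 77.1% and 87.9% and the 4 CYP86A genes between 55.1% and 61.8%, while the GSTU pair spans 20.1% to 94.9%.

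Presence in the other constructs was set beside the place in the gene. Of the 49 peaks in the first of 5 parts, 67.3%, 71.4% and 55.1% were found in the HY5-VP16 libraries, and 16.3% and 40.8% in those of HY5-SRDX. Of the 68 peaks in the last part, 76.5%, 79.4% and 57.4% were found in the HY5-VP16 libraries, and 29.4% and 57.4% in those of HY5-SRDX. The 227 peaks in the parts between gave 77.1%, 72.2% and 59.0% with HY5-VP16, and 26.4% and 56.8% with HY5-SRDX. The share near the start was thus below that of the other parts in each library. The difference was small from the parts between in HY5-VP16 replicate 2. It was also small from the last part in HY5-VP16 replicate 3 (27 of 49 peaks against 39 of 68). It was not tested, and the libraries partly share a control. The median HY5ox rank was 24.3 near the start and 24.8 near the end. The 24 peaks centred past the gene end were weaker by score, with a median rank of 44.8. Their median fold was lower than at the other places in HY5ox replicate 3 (5.18 against 6.99 to 7.25). It was higher in replicate 1 (7.85 against 6.11 to 7.29), and in replicate 2 it lay within the range of the others (4.02). HY5-VP16 replicates 1 and 2 listed 83.3% and 62.5% of the 24, and HY5-SRDX replicate 2 listed 62.5%. HY5-VP16 replicate 3 and HY5-SRDX replicate 1 each listed 6 of them.

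The peaks at the limits of the rule were as follows. The smallest overlap with HY5ox replicate 2 was 24 bp, in AT5G38710, and with HY5ox replicate 3 it was 4 bp, in AT3G60670. Just outside stood the peaks in AT3G11580, 2 bp from a peak of HY5ox replicate 2, and in AT3G06210, 6 bp from one of HY5ox replicate 3. A peak in AT3G10320 was left out for touching a promoter by 2 bp. By chromosome, 118, 68, 63, 55 and 64 of the 368 lay on chromosomes 1 to 5, which is 8.68%, 8.75%, 6.13%, 6.81% and 5.67% of the shared peaks there.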

How the data were processed

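Peak lists of 8 libraries and the authors' assignments of peaks to genes were used. The build was TAIR10 and the tools were HOMER 4.9.1, Bowtie2 2.3.0 and CASAVA 1.8.2, per the submitters' processing notes. HOMER called the peaks of each library on its own in factor mode, per the file headers, with a false discovery rate limit of 0.001, at least 3-fold over the set control (Poisson p 0.0001) and 2-fold over the local 10000 bp. The deposited signal is the tag count of a peak scaled to 10 M tags, the deposited fold is a ratio of tags, the deposited score is HOMER's own peak score, and the deposited focus ratio is a fraction. These are the authors' values and were used to describe and rank peaks within a list. To form the fold, control tags were scaled to the library, except for HY5-VP16 replicate 3, whose peak tags were scaled to its control instead, per the file headers. A stronger control or a shallower library can drop a peak below the fold requirement.

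From these, overlaps of at least 1 bp, percentile ranks (the best-scoring overlapping peak in other libraries), control signal (signal divided by fold) and places in genes were computed. Tests were two-sided and exact over libraries, with a threshold of 0.05 that neither could pass: sign flips over 5 libraries and permutations of 3 against 2. The overlap and peak class steps were run on simulated libraries, and each test only on a small made-up example. Intervals are 95% Wilson intervals. The members, gene lists and groups were chosen with earlier results of these data known. Named genes are the 12 with the lowest mean HY5ox rank, the 10 best-ranked in all 5 other libraries, up to 4 a gene list, and those at the rule's limits. Names came from RefSeq (TAIR10.1), which matched 371 of 375 hosts and 346 of 368 list symbols. The computations ran in Python 3.11.15 with pandas 2.3.3, numpy 2.4.6 and scipy 1.17.1, and figures were drawn with matplotlib 3.10.9. Overlap, fold, list length, peak class, anchor, matching, ranking and left-out libraries were varied.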

Additional observations from a re-analysis of the deposited data

How the results depend on the processing

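Of 90 recomputed values with a test, 81 kept their direction. No design could give a p under 0.05, so the side of the threshold was fixed in advance. Of 30 without a test, 27 moved by less than the spread or by less than 1.5 times. Some of these could not move: taking the same number of top peaks leaves the 368 peaks and their place unchanged. The spread used for place was an interquartile range of 46.1 points, far wider than its values of 54.1% to 58.7%. Set 1 only and leaving out HY5-VP16 replicate 3 use the same libraries, so their values are counted more than once. The number of gene-body-only peaks was 102 when every peak had to hold at least 5 times the control tags, and 412 to 689 without 1 HY5ox replicate, the highest without HY5ox replicate 2. The mean share found in the other constructs was 34.4% with the same number of top peaks from each library, where fewer peaks could be found. The rank difference changed sign to 0.0502 with peaks of at least 5 times the control, to 10.8 by fold over the control, and to 1.85 in set 1 only, and ranged from -3.18 to 1.85 without 1 replicate. The gap between gene-body-only and promoter peaks changed sign to 0.241 when matched by fold, and ranged from -3.19 to 2.12 there without 1 replicate (0.560 and 0.221 without HY5-VP16 replicates 1 and 2, 1.5 without HY5-SRDX replicate 1). The matching by fold, the 92 strongest peaks and rank matching without single libraries were chosen after seeing the data. The causes were not tested.

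With a replicate block that paired replicates 1 and 2 of HY5-VP16 and HY5-SRDX by number, the difference in share was 34.1 points and that in the gap 5.69 (exact permutation p = 0.500 for both, the smallest possible). The labels do not say what a number shares. Sequence motifs and exon or intron classes were not run. HY5-VP16 replicate 3 listed 2958 peaks, so a peak missing there may lie below its detection limit.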

Other observations

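Of the 375 hosts, 8 act in cutin or wax synthesis by textbook knowledge. They were grouped after their values were seen, with no list of all such genes beside them, so the group has no test or background. They were CYP86A2, CYP86A4, CYP86A7 and CYP86A8, the elongases KCS1 and KCS13, CER1, which makes wax alkanes, and WRI4, a regulator of wax synthesis. Their mean HY5ox ranks ran from 0.0836 to 50.6 with a median of 11.5. All 8 were found in at least 1 HY5-VP16 library and 6 in at least 1 HY5-SRDX library, near the shares over all 368 peaks, 90.8% and 61.4%. CER1 (AT1G02205) held 5.57, 8.67 and 8.57 times the control in HY5ox, and WRI4 (AT1G79700) held 8.55, 3.71 and 6.38 times.

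Lignin and phenylpropanoid genes formed another such group of 7: 4CL1, 4CL3, CCR1, FAH1, CCoAOMT1, UGT72E1 and the regulator MYB12. CCR1, which encodes cinnamoyl-CoA reductase of lignin synthesis, held 34.8, 4.96 and 15.4 times the control in HY5ox, 28.4, 16 and 4.65 times in HY5-VP16 and 16.3 times in HY5-SRDX replicate 2. Its fold of 34.8, in HY5ox replicate 1, came with 126 scaled tags at the peak, so it rests on few control tags. All 7 were found in at least 1 HY5-VP16 library and 3 in at least 1 HY5-SRDX library, beside the same 90.8% and 61.4%.

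Brassinosteroid genes were 5: the synthesis genes DWF4, DET2 and ROT3, the inhibitor BKI1 and the response gene BEE1. ROT3, a cytochrome P450, had the strongest peak of these, with 20.5, 13.5 and 10.2 times the control in HY5ox, 6.80, 12 and 5.24 times in HY5-VP16, and 4.09 and 8.92 times in HY5-SRDX. DET2 held 3.55, 3.71 and 7.23 times in HY5ox and was found in HY5-VP16 replicate 3 alone of the other constructs.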
